A study of Homo sapiens with 12 samples.

Results

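The thrombin receptor family and tissue factor were examined in A375, an established human melanoma cell line. The members are the genes F2R, F2RL1, F2RL2, F2RL3 and F3, and all 5 were found by symbol among the 4918 genes analysed, whose symbols run from A1BG to FAM46B. The members were chosen by the FPKM of F2R, which was lower in cells given SB-3CT with IFNγ than in cells given IFNγ alone, so that difference is a description here and carries no test for any member. SB-3CT is an inhibitor of the gelatinases MMP2 and MMP9, and IFNγ is interferon gamma, a cytokine that switches on antigen presentation and PD-L1. The 4 groups were control cells labelled as untreated, cells with SB-3CT, cells with IFNγ and cells with both, with 24 h of treatment and 3 RNA-seq samples a group. The labels mention a vehicle without assigning it to a group, and state neither doses nor whether the 3 samples came from separate cultures. The p-values therefore measure only the spread between these samples, which may be technical.

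Protease-activated receptors are G protein-coupled receptors that carry their own ligand. A protease cuts the extracellular end of the receptor, and the new end folds back and activates it. F2R encodes PAR1, the main thrombin receptor of many cell types. F2RL1 encodes PAR2, which is cut by trypsin-like proteases and by the complex of tissue factor with factor VIIa. F2RL2 encodes PAR3, which is cut by thrombin and can act as a cofactor for other receptors, and F2RL3 encodes PAR4, a thrombin receptor best known from platelets. F3 encodes tissue factor, the membrane protein that starts the clotting cascade leading to thrombin, and many tumour cells carry it.

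In hg19, F2RL2, F2R and F2RL1 lie side by side on chromosome 5 within 219.8 kb. F2RL2 (ENSG00000164220) spans chr5:75911307-75919238 on the minus strand, inside the gene IQGAP2 on the plus strand but with no shared exon. F2R (ENSG00000181104) spans chr5:76011951-76031595 and F2RL1 (ENSG00000164251) spans chr5:76114758-76131140, both on the plus strand, with 83.2 kb between them. Exons of F2R and of F2RL1 each overlap an exon of an annotated gene on the opposite strand, and the sources used here do not say whether reads were assigned by strand, so reads of such partners cannot be told apart. F2RL3 (ENSG00000127533) lies at chr19:16999810-17003417 on the plus strand, and F3 (ENSG00000117525) at chr1:94994729-95007315 on the minus strand. Each receptor gene has 2 exons and F3 has 6.

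The promoters of F3 and F2RL2 are shown because these members rose under a single agent, F3 with SB-3CT and F2RL2 with IFNγ. RefSeq promoters (GRCh38.p14) matched 4 of the 5 members, all but F2R. The 250 bases before the start are given 5′ to 3′ on the strand of the gene, at chr1:94541760-94542009 (minus strand) for F3 and chr5:76623404-76623653 (minus strand) for F2RL2, with matches to the AP-1 site TGANTCA in capitals.
F3: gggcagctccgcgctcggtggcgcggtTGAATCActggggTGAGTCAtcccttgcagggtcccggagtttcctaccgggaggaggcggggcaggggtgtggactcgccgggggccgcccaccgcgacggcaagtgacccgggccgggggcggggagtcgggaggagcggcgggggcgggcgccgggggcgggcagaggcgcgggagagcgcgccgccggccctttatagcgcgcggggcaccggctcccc
F2RL2: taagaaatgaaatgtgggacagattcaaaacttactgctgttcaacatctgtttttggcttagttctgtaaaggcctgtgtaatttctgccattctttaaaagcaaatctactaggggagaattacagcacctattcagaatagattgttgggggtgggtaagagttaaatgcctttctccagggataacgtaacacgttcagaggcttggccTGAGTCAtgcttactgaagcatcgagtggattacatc
On both strands, F3 held 2 AP-1 matches, beginning 223 and 210 bases before the start, and F2RL2 held 1, beginning 37 bases before it. Such a match was present in 6.57% of the 35116 promoters. The GC box GGGCGG occurred 4 times in F3, 2 times in F2RL1 and in neither F2RL2 nor F2RL3, against 42.64% of all promoters with at least 1. The interferon gamma-activated site TTCNNNGAA, found in 6.57% of promoters, had no match in the 4 windows. The TATA box TATAAA, found in 10.72%, occurred once in F3, 28 bases before the start on the reverse strand. These matches describe letters and were not tested as binding sites.

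The labels and the line were checked first. CXCL10, a chemokine induced by IFNγ, was at most 0.05 FPKM (a level corrected for transcript length and for the mapped fragments of a sample) in the samples without IFNγ, 78.7 to 86.2 FPKM with IFNγ and 96.5 to 122 FPKM with both agents. Of 5 markers of the line, CSPG4, AXL, CAV1 and EDNRB had group means of 4.57 FPKM or more, whereas DCT, a pigment enzyme, reached at most 0.384 FPKM. Of 14 markers of other cell types 11 were in the table, and these summed to between 0.93 and 1.78 FPKM in a sample. The number of reads per sample is unknown, and relative depth, read from the steps of the lowest values, ran from 87.1% to 150.1% of the control mean. The median change of the 3177 genes with a mean of at least 1 FPKM was -0.03 on the log2 scale for SB-3CT against control and -0.04 for IFNγ against control. It was -0.21 for both agents against SB-3CT and -0.20 for both agents against IFNγ, so the changes of the members and of the named genes in the cells with both agents are also given after scaling each sample by its median ratio to all samples.

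F2R was the most abundant of the receptors in every sample, and its mean FPKM fell by 26.6% with SB-3CT alone. In control samples 1 to 3 its level was 23.1, 23.1 and 24.7 FPKM, and with SB-3CT it was 18.2, 16.1 and 17.8 FPKM. All SB-3CT samples lay below all controls, as for 19.7% of all genes. This comparison shares no sample with the one that chose the gene, but the members were chosen with earlier results of these data known. The change was -0.43 on the log2(FPKM + 1) scale (SE 0.06, 95% interval -0.57 to -0.28, limma adjusted p = 0.00973). Leaving out 1 control or SB-3CT replicate 3 moved the adjusted p to between 0.0518 and 0.0613, and the change itself stayed between -0.46 and -0.37.

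With IFNγ alone F2R was at 24.5, 21.2 and 21.4 FPKM, and these values overlapped the controls. With both agents it was at 10.5, 11.6 and 9.97 FPKM, below every sample of the other groups. In bulk RNA, fewer cells with a transcript and less of it per cell cannot be told apart. The group means were 23.6 ± 0.95 FPKM in control cells, 17.4 ± 1.1 with SB-3CT, 22.4 ± 1.9 with IFNγ and 10.7 ± 0.82 with both (SD, n = 3 each). Cells with both agents thus held 45.2% of the control level as deposited, a figure that was not computed after scaling. Against SB-3CT alone the untested change was -0.65 on the log2 scale, and -0.41 after median-ratio scaling. Samples were all lower against SB-3CT alone for 41.9% of all genes. The difference that chose the gene, both agents against IFNγ, was -1.0 on the log2 scale as deposited and -0.76 after median-ratio scaling. All samples were lower in that comparison for 39.6% of all genes. In rank, 82.2% of genes had a lower mean than F2R in control cells and 72.0% in cells with both agents.

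**Figure D1:**
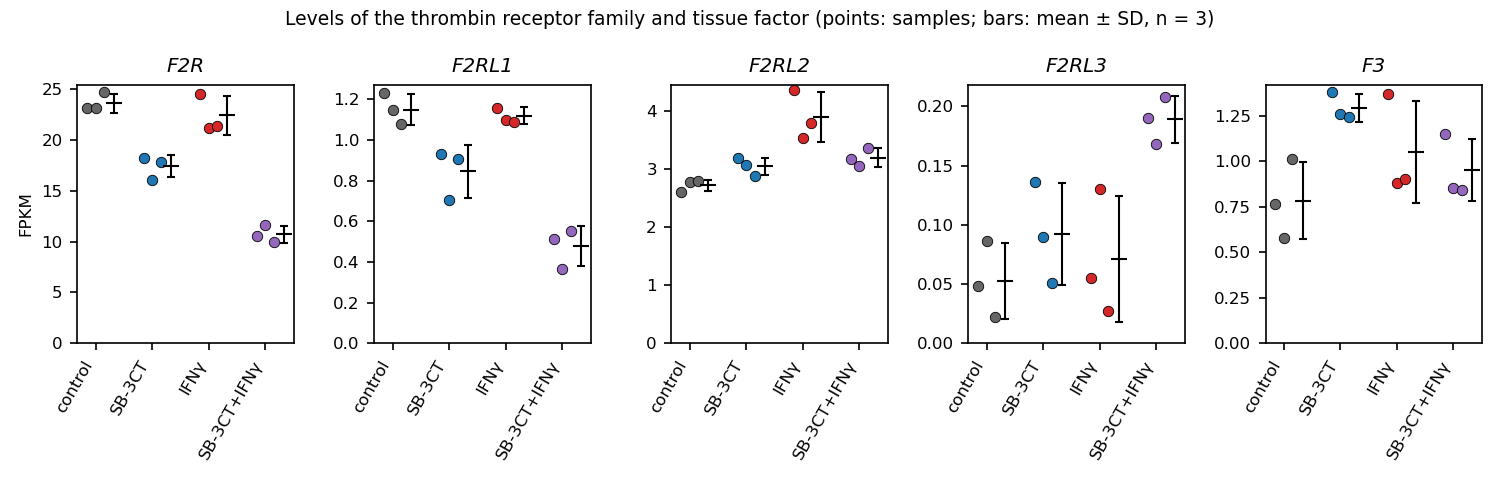
FPKM of each member (y axis, from 0, a separate scale for each gene) in the 12 samples by group (x axis), with points for samples and black bars for the mean ± SD of 3 samples. In the values as deposited, F2R and F2RL1 are lowest in all 3 samples with both agents and F2RL2 is highest in the 3 IFNγ samples. F2RL3 stays at or below 0.208 FPKM.

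F2RL1 (PAR2) was present at a much lower level and its group means had the same order as those of F2R, with control and IFNγ not apart beyond their spread. Its level was 1.23, 1.15 and 1.08 FPKM in control samples and 0.933, 0.704 and 0.905 FPKM with SB-3CT. All SB-3CT samples were below all controls, as for 19.7% of all genes, but the change did not pass the test. It was -0.22 (SE 0.07, 95% interval -0.39 to -0.05, limma adjusted p = 0.0863). With IFNγ alone F2RL1 was at 1.16, 1.1 and 1.09 FPKM, a change of -0.02 (95% interval -0.15 to 0.10, limma adjusted p = 0.806). With both agents F2RL1 was at 0.515, 0.365 and 0.552 FPKM, below every other sample. Samples with both agents were all lower than those with IFNγ alone for 39.6% of all genes. They were all lower than those with SB-3CT alone for 41.9%.

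Against SB-3CT alone, F2RL1 fell by 0.32 on the log2 scale in cells with both agents (SE 0.07, 95% interval -0.50 to -0.14, limma adjusted p = 0.0166), with all samples lower, as for 41.9% of all genes. That call depended on the scaling, since the change was -0.23 with an adjusted p of 0.0744 after median-ratio scaling. Against IFNγ alone, the untested change was -0.52 as deposited and -0.43 after that scaling, and the FPKM ratio was 0.43 as deposited. The F2R to F2RL1 ratio in FPKM was between 18.1 and 22.9 in 11 samples and 31.8 in SB-3CT+IFNγ replicate 2, where F2RL1 was lowest.

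As deposited, F2RL2 (PAR3) was highest with IFNγ alone, another order of groups than that of its neighbours on chromosome 5. It was at 2.61, 2.77 and 2.79 FPKM in control cells and at 4.37, 3.53 and 3.8 FPKM with IFNγ. All IFNγ samples were above all controls, as for 15% of all genes, and F2RL2 rose by 0.39 on the log2 scale (SE 0.08, 95% interval 0.19 to 0.60, limma adjusted p = 0.0226). Without any 1 of the controls, or without IFNγ replicate 3, the adjusted p was between 0.0710 and 0.0824.

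Under SB-3CT alone F2RL2 was at 3.19, 3.07 and 2.89 FPKM. These samples lay above the controls, as for 14.2% of all genes, but the change of 0.12 (95% interval -0.05 to 0.30) did not pass the test (limma adjusted p = 0.328). Both agents together gave 3.18, 3.06 and 3.37 FPKM, overlapping SB-3CT alone, with a change of 0.05 (limma adjusted p = 0.577) that was 0.26 after median-ratio scaling (adjusted p = 0.0324). Against IFNγ alone, the untested change was -0.22 as deposited, -0.02 after median-ratio scaling and 0.08 after quantile normalization, so its direction was set by the scaling.

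F2RL3 (PAR4) was close to the lower limit of the measurement. It was at 0.0485, 0.0866 and 0.0223 FPKM in control cells, 0.136, 0.0899 and 0.0507 with SB-3CT, and 0.0553, 0.13 and 0.0273 with IFNγ. These 3 groups overlapped, and the changes from control were 0.05 with SB-3CT (limma adjusted p = 0.401) and 0.02 with IFNγ (limma adjusted p = 0.746). F2RL3 FPKM was multiplied by the relative depth of the sample, and a step was set so that the lowest product equalled 2 steps. Steps therefore grow with depth and, unlike FPKM, are not levels to compare between samples. The products lay within 0.1 of a whole number of steps in 11 of 12 samples. They ran from 2 to 15 steps in these groups. The number of reads in a step is unknown.

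With both agents F2RL3 was at 0.19, 0.168 and 0.208 FPKM, above every other sample, at 16 to 20 steps. SB-3CT+IFNγ replicate 1, at 16.64 steps, was the sample not near a whole number. Samples were all above those of SB-3CT alone for 9.84% of all genes, and above those of IFNγ alone for 9.35%. Against SB-3CT alone it rose by 0.12 on the log2 scale (SE 0.03, 95% interval 0.04 to 0.20, limma adjusted p = 0.0298), and by 0.16 after median-ratio scaling (limma adjusted p = 0.0171). In 5 of the 6 fits that left out 1 sample, all but the one without SB-3CT replicate 1, the adjusted p was between 0.0562 and 0.0903. Against IFNγ alone the untested change was 0.15 (0.19 after that scaling), an FPKM ratio of 2.66 as deposited, and of the members F2RL3 alone had all samples higher in that comparison.

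F3 (tissue factor) was higher with SB-3CT alone. It was at 0.765, 0.579 and 1.01 FPKM in control cells and at 1.38, 1.26 and 1.24 FPKM with SB-3CT. All SB-3CT samples were above all controls, as for 14.2% of all genes, and the mean was 165.3% of control. The change of 0.37 (SE 0.09, 95% interval 0.15 to 0.59) passed the test narrowly (limma adjusted p = 0.0469). Each of the 6 fits that left out 1 sample gave an adjusted p between 0.0559 and 0.14.

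IFNγ samples had 1.37, 0.882 and 0.901 FPKM of F3 and overlapped the controls, with a change of 0.20 (95% interval -0.10 to 0.51, limma adjusted p = 0.334). With both agents F3 was at 1.15, 0.855 and 0.842 FPKM, below all samples with SB-3CT alone, as for 41.9% of all genes, and the change of -0.24 (95% interval -0.43 to -0.05) did not pass the test (limma adjusted p = 0.0531) and was -0.10 after median-ratio scaling. Without SB-3CT+IFNγ replicate 1 it was -0.31 with an adjusted p of 0.0189. The untested change against IFNγ alone was -0.07, and it was 0.06 after median-ratio scaling and 0.04 without IFNγ replicate 1. The F3 to F2RL1 ratio in FPKM was 0.50 to 0.93 in control cells, 1.37 to 1.79 with SB-3CT, 0.80 to 1.18 with IFNγ and 1.53 to 2.35 with both.

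**Figure D2:**
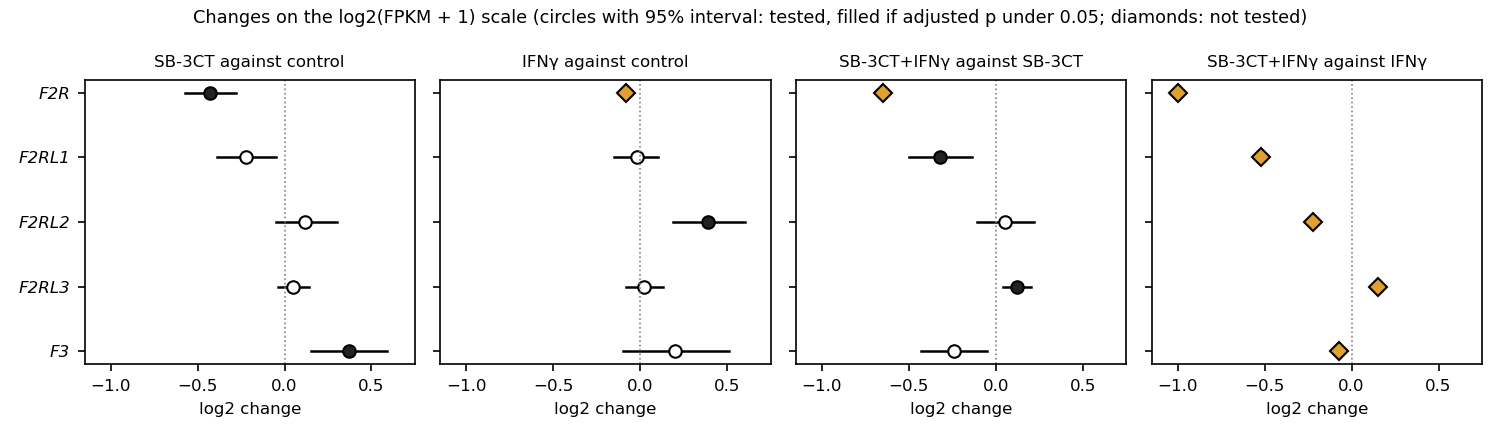
Change of each member (rows) on the log2(FPKM + 1) scale (x axis) in 4 comparisons, as circles with 95% intervals where tested (filled at an adjusted p under 0.05) and as diamonds where not tested. F2R is left of 0 in each panel, from -0.08 to -1.0, and F3 is right of 0 with SB-3CT or IFNγ alone and left of it in both comparisons of the cells with both agents, the last of which turned to 0.06 after median-ratio scaling.

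Across the comparisons that were tested, the calls stood as follows. With SB-3CT against control 2 of 5 members passed, F2R lower and F3 higher, where 12.2% of all genes passed, 6.87% lower and 5.37% higher. That balance over all genes, 338 lower and 264 higher, turned to 318 lower and 362 higher after median-ratio scaling. With IFNγ against control 1 of 4 tested members passed, F2RL2 higher, against 19.5% of all genes, 8.46% higher and 11% lower. With both agents against SB-3CT 2 of 4 passed, F2RL1 lower and F2RL3 higher, against 40.5% of all genes, 32.7% lower and 7.85% higher. No member was tested with both agents against IFNγ, where 37.9% of all genes passed, 31.5% lower and 6.41% higher. These comparisons share samples with one another, so their values stand side by side and are not independent. For 3 samples against 3, the smallest p of an exact test is 0.1.

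The make-up of the receptor transcripts shifted with the levels. F2R made up 85.7% of the summed FPKM of the 4 receptors in control cells, 81.3% with SB-3CT, 81.5% with IFNγ and 73.4% with both agents. F2RL2 made up 9.9%, 14.3%, 14.2% and 22.0% in the same order. In each sample with both agents the share of F2RL2, 20.1% to 23.9%, was above that of each other sample, at most 15.4%. F2RL1 stayed between 2.4% and 4.6% in all samples. The summed level was 27.6 ± 0.92 FPKM in control cells, 21.4 ± 1.3 with SB-3CT, 27.5 ± 2.3 with IFNγ and 14.6 ± 0.56 with both (SD, n = 3 each). A share within a sample does not depend on its scaling factor, but since F2R is part of it, the shares were not tested.

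**Figure D3:**
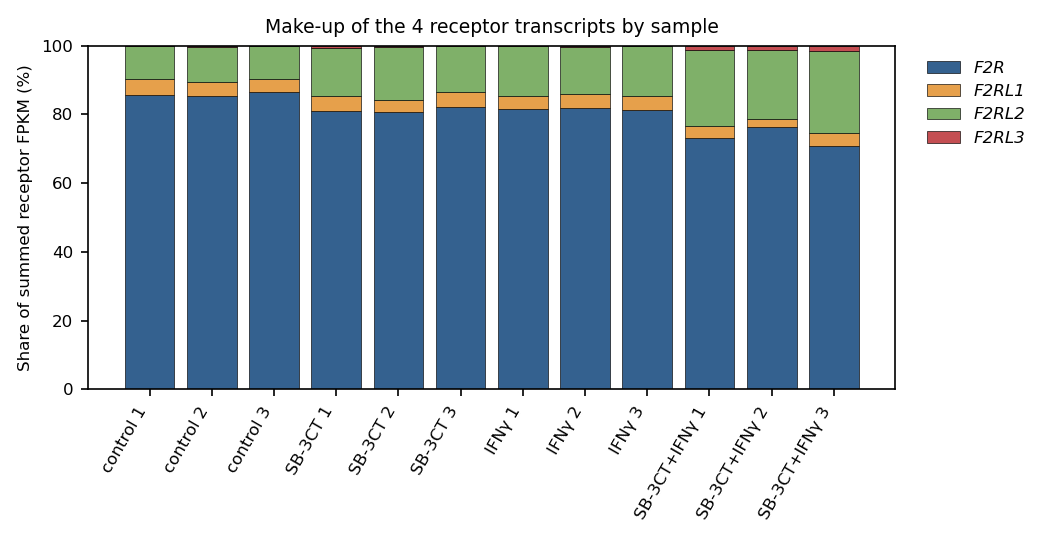
Share of the summed FPKM of the 4 receptor genes (y axis, percent) in each of the 12 samples (x axis), stacked as F2R, F2RL1, F2RL2 and F2RL3. F2R takes 85.2% to 86.4% in control samples and 70.7% to 76.3% with both agents, and F2RL2 takes most of the difference.

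Genes beside the members on the chromosomes were read from the same table within 500 kb. AGGF1, an angiogenic factor 193.9 kb beyond F2RL1, changed by -0.29 with SB-3CT (limma adjusted p = 0.144), by -0.00 with IFNγ (limma adjusted p = 0.978) and by -0.63 with both agents against IFNγ (limma adjusted p = 0.00365), or -0.42 after median-ratio scaling (limma adjusted p = 0.014). CRHBP, between them, had group means of at most 0.101 FPKM. ABCD3, a peroxisomal transporter 10.5 kb from F3, changed by -0.02 with SB-3CT (limma adjusted p = 0.885), and CNN3, an actin-binding protein 355.2 kb from F3, fell by 0.44 (limma adjusted p = 0.00596). CPAMD8, 0.3 kb from F2RL3, had group means of at most 0.0173 FPKM.

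Most of the listed clotting factor genes and receptor-cutting protease genes were absent from the genes analysed, for an unknown reason. Of 10 other clotting factor genes 4 were in the table (F5, F8, F10 and F12). Of these, 0 passed limma's test in any of the 4 comparisons. Under IFNγ alone 1 was lower at an unadjusted p under 0.05, as were 966 of all 4918 genes. Of 6 receptor-cutting proteases 2 were in the table, F10 and CTSS. CTSS encodes cathepsin S, a lysosomal protease that also cuts PAR2. It rose from 0.871 FPKM in control cells to 42.6 FPKM with IFNγ, a log2 change of 4.55 (limma adjusted p = 1.57e-06). With SB-3CT present it rose from 0.777 to 48.0 FPKM on addition of IFNγ, a log2 change of 4.78 (limma adjusted p = 5.78e-07) that was 5.01 after median-ratio scaling.

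Thrombin-inducible genes were counted in a hand-written list of 13, all of them in the table. Like the other lists, it was written with earlier results of these data known, so its counts and medians only describe these samples. With SB-3CT alone 4 rose and 0 fell by limma, where 5.37% of all genes passed higher and 6.87% lower. At an unadjusted p under 0.05 the list had 6 higher and 0 lower, against 608 and 870 among all 4918 genes. The list's median change was 0.13 against -0.01 for all genes. Among genes with a mean of at least 1 FPKM the medians were 0.20 for 10 genes of the list and -0.03 for all 3177. DUSP1, a phosphatase of MAP kinases, rose from 9.25 to 17.2 FPKM (log2 change 0.83, limma adjusted p = 0.000948). ATF3, a stress-induced transcription factor, rose from 4.07 to 7.79 FPKM (0.79, limma adjusted p = 0.00241). EGR1, an immediate-early transcription factor, rose by 0.56 (limma adjusted p = 0.0215) and the chemokine CXCL1 by 0.35 (limma adjusted p = 0.0265). These genes respond to many stimuli besides thrombin.

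With IFNγ alone 5 of the 13 rose and 1 fell, where 8.46% of all genes passed higher and 11% lower. ATF3 rose by 1.55 (limma adjusted p = 1.59e-05), the chemokine CCL2 by 0.88 (limma adjusted p = 0.0046) and ANKRD1, a target of the YAP coactivator, by 0.57 (limma adjusted p = 0.017), while the gene that fell, named after its values were seen, was AREG, an EGF receptor ligand with a mean under 1 FPKM, by 0.71 (limma adjusted p = 0.00609). Comparing both agents with IFNγ, 1 rose and 4 fell, where 6.41% of all genes passed higher and 31.5% lower. CCL2 rose by 0.55 (limma adjusted p = 0.00706), and ANKRD1 fell by 0.88 (limma adjusted p = 0.00236) and CTGF, a matricellular growth factor, by 0.59 (limma adjusted p = 0.00247). After median-ratio scaling these changes were 0.80 for CCL2, -0.67 for ANKRD1 and -0.35 for CTGF, and all 3 passed limma's test, whereas CCL2 did not pass after correction for transcript length (0.31, limma adjusted p = 0.0677). With median-ratio scaling the split of the list was 4 higher and 2 lower, so the balance of directions depended on scaling. Against SB-3CT alone 2 rose and 6 fell, and 2 and 2 after that scaling. As deposited, 7.85% of all genes passed higher and 32.7% lower there.

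Arrestin and endocytosis genes, which shut off and internalise these receptors, numbered 22. With SB-3CT alone 1 rose and 1 fell, where 5.37% of all genes passed higher and 6.87% lower. The riser was CLTB, a clathrin light chain, by 0.33 (limma adjusted p = 0.0189). The gene that fell was ARRDC3, an arrestin-domain protein known to act in PAR1 sorting, by 0.47 (limma adjusted p = 0.0377). With IFNγ alone 1 rose and 2 fell, where 8.46% of all genes passed higher and 11% lower. The genes that fell were ARRB1, beta-arrestin 1, by 0.47 (limma adjusted p = 0.0101) and DNM1, a dynamin, by 0.58 (limma adjusted p = 0.0213).

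Adding SB-3CT to IFNγ, 3 of the 22 rose and 11 fell, with a list median of -0.24. Of all genes, 6.41% passed higher and 31.5% lower. Among genes with a mean of at least 1 FPKM the medians were close, -0.25 for 21 genes of the list and -0.20 for all 3177. AP3B1, a subunit of an adaptor of lysosomal sorting, fell by 0.76 (limma adjusted p = 0.00207), CLTC, the clathrin heavy chain, by 0.73 (limma adjusted p = 0.00207) and ARRDC3 by 0.66 (limma adjusted p = 0.00236). These falls were -0.53, -0.49 and -0.48 after median-ratio scaling and passed limma's test there. The 3 that rose were AP2S1, AP3S1 and CLTB, named after their values were seen. They are small adaptor subunits and a clathrin light chain. AP2S1 and CLTB did not pass limma's test after quantile normalization (-0.04 and 0.37, limma adjusted p = 0.611 and 0.094). After median-ratio scaling 3 rose and 6 fell and the median was -0.02. Against SB-3CT alone 2 rose and 16 fell as deposited, and 2 and 7 after that scaling. As deposited, 7.85% of all genes passed higher and 32.7% lower there.

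Effectors of the G proteins to which the receptors couple were represented by 20 of 23 genes. With SB-3CT alone 2 rose and 1 fell, where 5.37% of all genes passed higher and 6.87% lower. The risers were AKT1, a kinase, by 0.27 (limma adjusted p = 0.0357) and ARHGEF1 by 0.21 (limma adjusted p = 0.0258). ARHGEF1 activates RhoA downstream of G12 and G13 proteins. With IFNγ alone 3 rose and 2 fell, where 8.46% of all genes passed higher and 11% lower. ADCY7, an adenylyl cyclase, was higher by 0.41 (limma adjusted p = 0.0218). With both agents 0 rose and 9 fell against IFNγ by limma. Of all genes, 6.41% passed higher and 31.5% lower in that comparison. At an unadjusted p under 0.05 the list had 0 higher and 10 lower, against 428 and 1858 among all 4918 genes. Among genes with a mean of at least 1 FPKM the medians were close, -0.23 for 17 genes of the list and -0.20 for all 3177. The largest fall was that of ARHGEF12, a further RhoA activator, by 0.71 (limma adjusted p = 0.00288), or by 0.50 after median-ratio scaling (limma adjusted p = 0.00611). After median-ratio scaling the count of the list was 2 higher and 3 lower. Against SB-3CT alone 0 rose and 9 fell, and 2 and 2 after that scaling. As deposited, 7.85% of all genes passed higher and 32.7% lower there. At an unadjusted p under 0.05 the list had 0 higher and 11 lower, against 457 and 1962 among all 4918 genes.

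**Figure D4:**
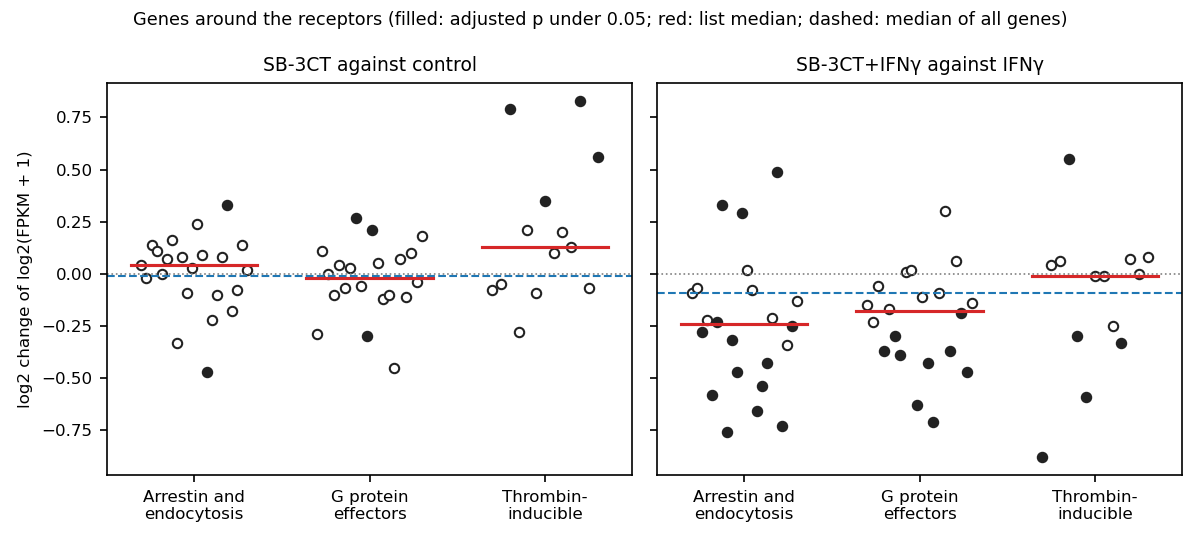
Change on the log2(FPKM + 1) scale (y axis) of each gene in 3 lists (x axis) for SB-3CT against control and both agents against IFNγ, with filled points at an adjusted p under 0.05, red lines at list medians and a dashed line at the median of all genes, expressed or not (-0.01 and -0.09, against -0.03 and -0.20 for genes with a mean of at least 1 FPKM). With SB-3CT alone 4 thrombin-inducible genes are filled above 0, and with both agents most filled points of the first 2 lists are below 0, a balance that narrowed to 3 higher and 6 lower and to 2 higher and 3 lower after median-ratio scaling.

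Over the 12 samples, the genes with a mean of at least 1 FPKM whose log2 values were most like those of F2R were AHR, C3orf17, CLCC1 and ATXN10 (Pearson r = 0.980 each) and CPSF3 (r = 0.979). AHR, the aryl hydrocarbon receptor, was at 13.5 FPKM in control cells, 11 with SB-3CT, 12.2 with IFNγ and 7.05 with both. Among the members F2RL1 was most like F2R (r = 0.947), F2RL3 ran opposite (r = -0.854), and F2RL2 (r = 0.030) and F3 (r = -0.055) had little likeness. Among the genes most like F3 were ARFGAP1 (r = 0.902), EIF1 (r = 0.895), CCM2 (r = 0.869) and CD81 (r = 0.862). These values describe 12 samples in 4 groups that share scaling and depth, and carry no test.

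**Figure D5:**
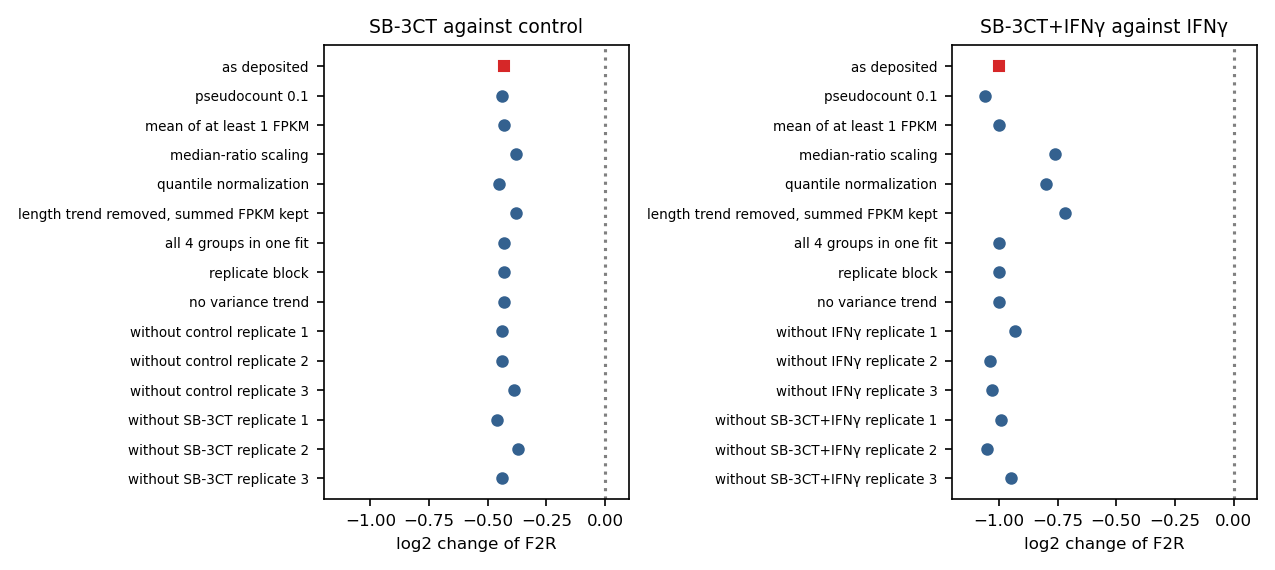
Change of F2R on the log2 scale (x axis) as deposited (red square) and under each alternative processing or with 1 sample left out (blue points), for SB-3CT against control and both agents against IFNγ. Every setting is below 0, between -0.46 and -0.37 for the left-out samples of SB-3CT against control, and the 3 changes of scaling bring the second comparison to -0.80, -0.76 and -0.72.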

How the data were processed

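RNA-seq (150-base paired-end reads) was performed on 12 samples. The authors aligned reads to hg19 with HISAT2 2.0.5 and calculated FPKM with StringTie 1.3.3. The deposited values fit log2(FPKM + 1), which is inferred from their range (highest value 12.16), and 2 to the power of the value minus 1 was taken for FPKM. Groups came from the labels. Groups of 3 were tested on the deposited log2 scale with R 4.3.3 and its package limma 3.58.1 (variance trend, unpaired, two-sided), with Benjamini-Hochberg adjustment over 4918 genes and calls at an adjusted p under 0.05. This scale understates changes of low genes. F2R was not tested in comparisons sharing samples with the one that chose it. The tests were tested on simulated data. Members and lists were chosen with earlier results of these data known. Besides the members, the text names at most the 4 largest called changes per list and comparison (mean of at least 1 FPKM), genes within 500 kb, the 5 genes most like F2R and F3, CXCL10 and the cell type markers. Clotting factors in the table are listed, and genes behind small counts were named after their values were seen. Some results under this rule are not reported here. Gene positions came from GENCODE v44lift37 and promoters from RefSeq. Samples were not paired by replicate number in the main tests, and whether equal numbers mark shared cultures is unknown. The alternatives were a pseudocount of 0.1, a minimum mean FPKM, median-ratio and quantile scaling, a single fit, a replicate block, no variance trend, left-out samples, a fold rule (over 1.5 with unadjusted p under 0.05) and, chosen after seeing the data, a correction for transcript length within each sample. Depth is unknown, so no counting intervals are given.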

Additional observations from a re-analysis of the deposited data

Results flagged for a closer look

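For F2RL2 every SB-3CT sample was above every control without IFNγ (log2 change 0.12), and every sample with both agents was below every IFNγ sample (-0.22). Of all genes, 14.2% were wholly higher in the first comparison and 39.6% wholly lower in the second. The difference between these changes was not tested, and the second value was -0.02 after median-ratio scaling and 0.08 after quantile normalization.

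For F3 every IFNγ sample was above the control mean without SB-3CT (log2 change 0.20), although the groups overlapped, and every sample with both agents was below every SB-3CT sample (-0.24, or -0.10 after median-ratio scaling), as for 41.9% of all genes. The difference between these changes was not tested.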

How the results depend on the processing

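Of 176 alternatives of the tested member results, 138 kept direction and side of the threshold, 29 lost the call, 6 gained one and 3 turned direction. The cause was not tested. F2R with SB-3CT kept its call in every alternative that used all samples. For F3 with SB-3CT the call was lost at a pseudocount of 0.1 (0.69, limma adjusted p = 0.0622). In all 4 groups in one fit F2RL1 with SB-3CT passed (-0.22, limma adjusted p = 0.0436). With IFNγ, F2RL1 was 0.00 after median-ratio scaling. With both agents against SB-3CT, F2RL1 lost its call under median-ratio scaling (-0.23), quantile normalization (-0.25) and length-trend removal (-0.25), F2RL2 gained one under the first 2 (0.26 and 0.24), F2RL3 lost it without a variance trend (0.12), and F3 passed with a mean of at least 1 FPKM (-0.24) and without the trend (-0.24). F2R with both agents against IFNγ was -0.76, -0.80 and -0.72 under the 3 scalings.

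The replicate numbers gave correlations of deviations between -0.39 and 0.17. With 3 samples a group these cannot decide whether equal numbers mark shared cultures. With the replicate block 259, 775, 1361 and 1609 genes passed in the 4 comparisons, against 602, 958, 1994 and 1862, and the calls of F3 with SB-3CT (0.37, limma adjusted p = 0.073), F2RL2 with IFNγ (0.39, limma adjusted p = 0.0633) and F2RL3 with both agents against SB-3CT (0.12, limma adjusted p = 0.0733) were lost.

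The fold rule gave 49, 234, 278 and 367 genes. For both agents against SB-3CT 1179 genes passed after median-ratio scaling and 1297 after length-trend removal, and against IFNγ 966 after the latter. The share of calls that were lower was 80.6% against SB-3CT (42.7%, 61.5% and 66.0% under the 3 scalings), 83.1% against IFNγ (48.4%, 56.8% and 60.7%) 56.6% for IFNγ against control (45.6% after median-ratio scaling) and 56.1% for SB-3CT against control (46.8% and 48.0% after median-ratio scaling and quantile normalization).

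With 1 sample left out, gene counts ran from 73 to 912 for SB-3CT against control (912 without SB-3CT replicate 1, at most 88 otherwise), 562 to 982 for IFNγ against control, 1507 to 1780 for both against SB-3CT and 1230 to 1977 for both against IFNγ. The ranges with SB-3CT against control were -0.46 to -0.37 for F2R, -0.26 to -0.17 for F2RL1, 0.10 to 0.15 for F2RL2, 0.02 to 0.08 for F2RL3 and 0.29 to 0.46 for F3. With IFNγ they were -0.05 to 0.00 for F2RL1, 0.32 to 0.45 for F2RL2, -0.02 to 0.05 for F2RL3 (below 0 without IFNγ replicate 2) and 0.09 to 0.29 for F3. With both against SB-3CT they were -0.38 to -0.27 for F2RL1 (adjusted p 0.0544 and 0.0587 without SB-3CT replicates 1 and 3), 0.02 to 0.08 for F2RL2, 0.09 to 0.15 for F2RL3 and -0.31 to -0.20 for F3. Depth is unknown, and the F2RL3 values lay at 2 to 20 steps, the lowest being set to 2.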
